A study of Mus musculus with 2 samples.

Results

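The levels of 8 long noncoding RNAs (lncRNAs, transcripts that encode no protein) were examined in mouse lung cancer cells with and without restored *Runx3*. The 8 were taken by gene symbol as well known lncRNAs of tumour cells: *Malat1*, *Neat1*, *H19*, *Meg3*, *Pvt1*, *Mir17hg*, *Dleu2* and *Kcnq1ot1*. All 8 symbols were found among the 23183 genes of the deposited values, of which 2064 carry the lncRNA biotype in RefSeq. RNA was sequenced from 2 libraries of an immortalized cell line grown from lung cancers of KPR L/F-TAM(-) mice. The mice had the alleles p53 flox/flox, K-Ras LSL-G12D/+, Rosa26R-Tomato, Flp ERT2 and Runx3 flox/FSF. Ad-Cre (adenoviral Cre under the CMV promoter), given through the nose, opened the K-Ras allele and deleted the floxed alleles. KPR- cells have a *Frt-Stop-Frt* (FSF) cassette in the remaining *Runx3* allele, and the records give their genotype as RUNX3 -/-. KPR_restored cells are the same line after 4-OHT, an active form of tamoxifen, has switched on Flp ERT2 to remove that cassette, and their genotype is given as RUNX3 -/+. Both conditions therefore share the K-Ras, p53 and Tomato alleles. The sample titles give 0 h for KPR- and 16 h for KPR_restored, while 1 μM 4-OHT is listed for both. Each condition is 1 library of 1 cell line, so the spread between cultures is unknown and no p-value is given.

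Several of these RNAs work in the nucleus. *Malat1* is held in nuclear speckles, bodies rich in splicing factors, and the long form of *Neat1* is the scaffold on which paraspeckles are built. *H19*, *Meg3* and *Kcnq1ot1* are imprinted, which means that they are transcribed mainly from the allele of 1 parent. *Kcnq1ot1* silences genes around it, and *H19* and *Meg3* are maternally expressed partners of the growth genes *Igf2* and *Dlk1*. *Mir17hg* and *Dleu2* are host transcripts from which microRNAs are cut, miR-17-92 (an oncogenic cluster) and miR-15a/16-1 (a cluster lost in some leukaemias). *Pvt1* lies beside the oncogene *Myc* and is often co-amplified with it.

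The sequences that set these RNAs apart from ordinary messengers are shown first, because RNA with a poly(A) tail was selected before sequencing. *Malat1* and long *Neat1* end in a triple helix instead of a tail, made by an A-rich tract that folds back onto a pair of U-rich motifs. Short *Neat1* ends at an ordinary poly(A) signal. The stretches below are from GENCODE M21 transcripts (GRCm38, minus strand), at chr19:5795982-5796075 for *Malat1*, chr19:5824708-5824807 for long *Neat1* and chr19:5842307-5842386 for short *Neat1*. Capitals mark the U-rich motifs (written with T), the A-rich tract and, in short *Neat1*, the poly(A) signal.
Malat1: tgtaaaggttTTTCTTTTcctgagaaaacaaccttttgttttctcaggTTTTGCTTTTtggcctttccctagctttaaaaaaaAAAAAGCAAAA
Neat1 long: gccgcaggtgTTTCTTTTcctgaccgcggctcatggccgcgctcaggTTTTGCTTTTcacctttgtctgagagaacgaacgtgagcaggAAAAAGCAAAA
Neat1 short: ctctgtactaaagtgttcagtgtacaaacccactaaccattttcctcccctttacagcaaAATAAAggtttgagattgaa
The same 3 motifs occurred in both triple helix stretches. The A-rich tract is the last part of the long *Neat1* transcript of 20771 bases, whereas the *Malat1* transcript of 6983 bases runs on for 292 bases after it. How much of the measured *Malat1* and *Neat1* RNA was tailed was not tested.

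The microRNAs of the host transcripts are given next, since they are the products for which *Mir17hg* and *Dleu2* are known. Mature sequences were taken from RefSeq (GRCm38), and capitals mark the seed, bases 2 to 8, which pairs with target messengers.
miR-17-5p: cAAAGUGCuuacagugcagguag
miR-20a-5p: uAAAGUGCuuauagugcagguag
miR-18a-5p: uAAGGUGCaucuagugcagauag
miR-19a-3p: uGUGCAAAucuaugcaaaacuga
miR-19b-3p: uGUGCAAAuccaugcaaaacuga
miR-92a-3p: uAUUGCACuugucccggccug
miR-15a-5p: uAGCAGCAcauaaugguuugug
miR-16-5p: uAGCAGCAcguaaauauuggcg
miR-675-5p: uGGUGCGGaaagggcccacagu
Seeds were shared within these groups, miR-17-5p with miR-20a-5p, miR-19a-3p with miR-19b-3p, and miR-15a-5p with miR-16-5p. The seed of miR-18a-5p is a near copy of the miR-17-5p seed. miR-675-5p is cut from *H19*. Mature microRNAs are not measured by poly(A)-selected RNA-seq, and the levels below are those of the host transcripts.

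Values are FPKM, fragments per kilobase of transcript per M mapped, so levels can be compared between genes per length. A difference is log2(FPKM + 0.005) in KPR_restored minus KPR-, and 0.5 either way was the threshold. The steps between low FPKM values gave a depth of 21.7 M fragments in KPR- and of 22.4 M in KPR_restored. Fragments per gene estimated from these depths gave 95% intervals (exact Clopper-Pearson), which set the libraries against each other and take in counting error alone. *Runx3* itself was at 0.348 in KPR- and 0.349 in KPR_restored (28 and 29 estimated fragments, interval of the difference -0.80 to 0.81), so its FPKM does not check the labels. Of 11 lung epithelium markers, 6 reached a mean FPKM of 1, among them *Epcam* (105 and 91.6), *Krt18* (1931 and 1676), *Cdh1* (119 and 130.2) and the lineage factor *Foxa2* (10.7 and 16.1, a difference of 0.60). *Nkx2-1* was at 0.0444 and 0.0216, and the alveolar and club cell markers *Sftpc*, *Sftpa1*, *Sftpb* and *Scgb1a1* were listed at 0 in both libraries. Of 8 mesenchyme markers, *Vim* (1777 and 1464), *Fn1* (242 and 239) and *Col1a1* (12.2 and 4.21, a difference of -1.53) reached that mean, and the other 5 were below 1 in both. Of 5 leukocyte markers only *Cd68* did (3.08 and 6.78, a difference of 1.13), while *Ptprc* was at 0 and 0.00892 and *Lyz2* and *Cd3e* were at 0. Of 4 endothelium markers only *Kdr* did (1.099 and 2.05, a difference of 0.89). Below 1 in both libraries were *Cdh5* (0 and 0.141), *Pecam1* (0.0601 and 0.0292) and *Vwf* (0.0318 and 0.0206). The summed FPKM was 4892 and 4641 for the epithelium list, 2032 and 1707 for mesenchyme, 3.08 and 6.79 for leukocytes, and 1.19 and 2.24 for endothelium. The part of these markers in the results below was not tested.

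The 8 lncRNAs spanned nearly the whole range of expression. *Malat1* and *Neat1* were the most abundant and second most abundant of all lncRNA genes in both libraries. *Mir17hg* and *Pvt1* were at a few FPKM, *Meg3* near 1, *Kcnq1ot1* and *Dleu2* below 1, and *H19* was at or under 2 estimated fragments. The order was the same in both libraries. *Neat1* alone was higher in KPR_restored by the threshold, *Mir17hg*, *Dleu2* and *H19* were lower, and the other 4 were past it neither way. Over all 23183 genes, 13.8% were higher and 12.9% were lower by the threshold, 26.7% in all. Over the 2064 lncRNA genes, the shares were 14.3% and 15.9%, 30.2% in all. With the transcript lengths used, *Dleu2* and *H19* rest on under 10 estimated fragments over both libraries.

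**Figure D1:**
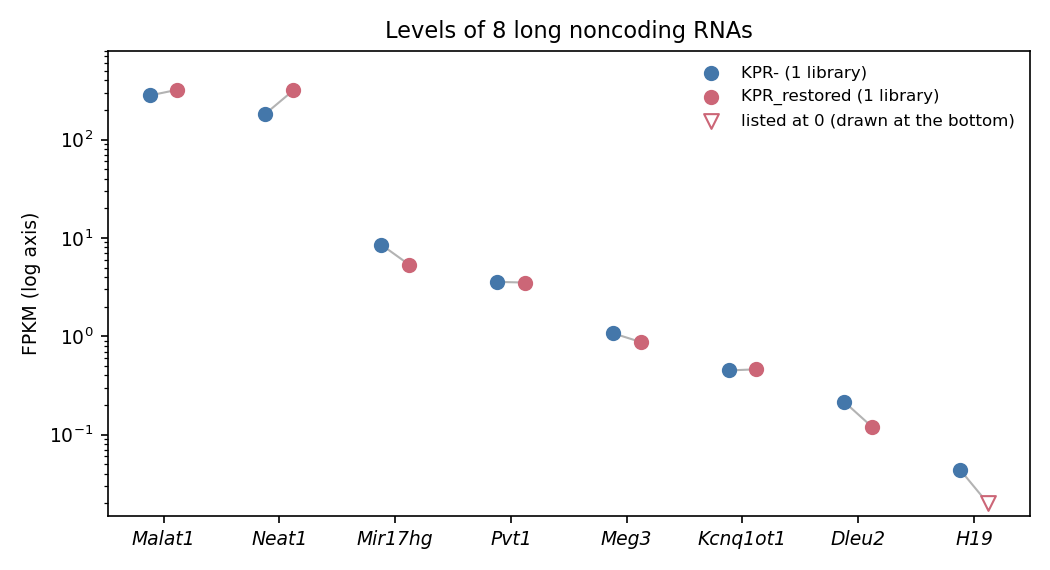
FPKM (log axis) of the 8 lncRNAs in the KPR- library (blue) and the KPR_restored library (red), 1 library each, ordered by mean level. *Malat1* and *Neat1* sit above 180 in both libraries, and *H19* is listed at 0 in KPR_restored (open triangle at the bottom).

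*Neat1*, the paraspeckle scaffold, lies at chr19:5824708-5845478 (GRCm38, minus strand) as a gene without an intron in its long form. Its level was 183 FPKM in KPR- and 316 FPKM in KPR_restored. The KPR_restored library was therefore the higher, by 72.6%. The log2 difference was 0.79, with a counting interval of 0.77 to 0.80 for the long transcript and of 0.71 to 0.87 for the shortest transcript, of 711 bases. *Neat1* ranked 431 among all genes by level in KPR- and 235 in KPR_restored. Its difference was above those of 94.9% of the 11231 genes whose mean FPKM was 1 or more. Among the other 213 lncRNA genes at that level, 18 had a greater difference and 195 a smaller one. The long and short forms share their 5′ part and are given as 1 value, so which form differed cannot be told apart. In bulk RNA, fewer cells with an RNA and less of it per cell cannot be told apart either, here and for the other members.

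*Malat1*, the speckle-associated RNA, lies 22.04 kb from *Neat1* on the same strand, at chr19:5795690-5802672, and has a single exon in the transcript used. It was at 281 FPKM in KPR- and 321 FPKM in KPR_restored. The KPR_restored library was higher by 14.3%, a log2 difference of 0.19 (counting interval 0.17 to 0.21), which is under the threshold. Its rank among all genes was 268 in KPR- and 231 in KPR_restored. The ratio of *Neat1* to *Malat1* was 0.652 in KPR- and 0.984 in KPR_restored. By the deposited FPKM, the neighbouring RNAs were thus nearly level in the KPR_restored library and unequal in the KPR- library. Which transcript lengths went into these values is not given in the sources used here, and the size of the ratio depends on them. Together *Malat1* and *Neat1* held 17.2% of the summed FPKM of all lncRNA genes in KPR- and 21.9% in KPR_restored.

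*Mir17hg*, the host of the miR-17-92 cluster, lies at chr14:115042879-115046727 (plus strand). Its level was 8.54 FPKM in KPR- and 5.36 FPKM in KPR_restored, from 616 and 399 estimated fragments. The KPR_restored library was the lower, at 0.628 of the KPR- level. The log2 difference was -0.67, with a counting interval of -0.86 to -0.49. *Mir17hg* stood at rank 51 among lncRNA genes in KPR- and at rank 65 in KPR_restored. Of the other 213 lncRNA genes at or above a mean FPKM of 1, 29 had a lower difference, and over all genes at that level 4.67% did. Transcript models differ here. The GENCODE transcript holds all 6 hairpins of the cluster, whereas the RefSeq gene begins at position 115044390, so that 4 hairpins lie before its start, miR-19b-1 lies across it and miR-92a-1 lies inside. With the RefSeq span of 2339 bases as the length, the interval was -0.90 to -0.44.

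*Pvt1*, the neighbour of *Myc*, lies at chr15:62037986-62378096 (plus strand). It was at 3.57 FPKM in KPR- and 3.52 FPKM in KPR_restored, from 105 and 107 estimated fragments. The libraries were nearly equal, with a log2 difference of -0.02 and a counting interval of -0.42 to 0.38. A difference of up to about that size was not detectable at this depth.

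*Meg3*, a maternally expressed growth suppressor, lies at chr12:109541001-109571726 (plus strand). It was at 1.08 FPKM in KPR- and 0.875 FPKM in KPR_restored. The log2 difference of -0.30 was under the threshold. Its counting interval was -0.53 to -0.07 when the longest transcript, of 14548 bases, was taken (335 and 281 fragments). With the shortest, of 421 bases, only 5 and 4 fragments remained and the interval ran from -2.70 to 1.85. Which length went into the deposited value is not given in the sources used here.

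*Kcnq1ot1*, the silencing RNA of the *Kcnq1* domain, lies at chr7:143203458-143296549 (minus strand) as 1 exon of 93092 bases, inside *Kcnq1* and antisense to it. It was at 0.449 FPKM in KPR- and 0.462 FPKM in KPR_restored. Because the transcript is so long, these low levels rest on 905 and 960 estimated fragments. The log2 difference was 0.04, with a counting interval of -0.09 to 0.17. *Kcnq1* itself was at 0.0648 and 0.0315 FPKM. Whether strand was used in counting is not given in the sources used here, so reads of the overlapping genes cannot be told apart.

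*Dleu2*, the host of miR-15a and miR-16-1, lies at chr14:61602839-61682373 (minus strand) with 15 annotated transcripts. It was at 0.215 FPKM in KPR- and 0.120 FPKM in KPR_restored. These levels rest on only 6 and 3 estimated fragments when a transcript of 1437 bases is taken. The log2 difference was -0.82, and its counting interval of -3.67 to 1.18 includes 0. *Trim13*, a ubiquitin ligase gene on the other strand, shares 3108 bases of genomic span with *Dleu2* and was at 2.70 and 5.72 FPKM.

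*H19*, the host of miR-675, lies at chr7:142575529-142578143 (minus strand). It was at 0.0440 FPKM in KPR-, about 2 fragments, and was listed at 0 in KPR_restored. Both values lie under 3 counts, so no fold is given, and the computed log2 difference of -3.29 is set by the pseudocount. A difference in *H19* was not detectable at this depth.

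**Figure D2:**
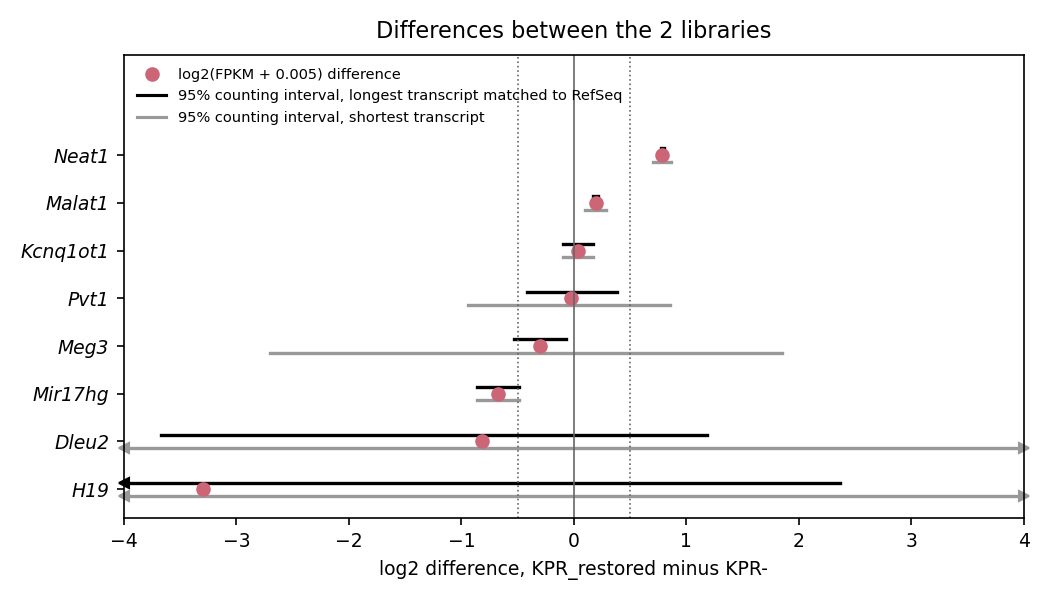
Log2 difference of each lncRNA (red points) in KPR_restored minus KPR-, with 95% counting intervals from the longest transcript matched to RefSeq (black) and from the shortest of at least 350 bases (grey). Dotted lines mark 0.5 either way, and arrows mark intervals that run past the axis. The *Neat1* intervals lie above 0 and the *Mir17hg* interval below it, whereas those of *Meg3* differ and those of *Dleu2* and *H19* are wide. *Mir17hg* and *Kcnq1ot1* have 1 transcript each, so their black and grey intervals are the same.

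Across the 8, the counting interval excluded 0 for *Malat1* and *Neat1* above and for *Meg3* and *Mir17hg* below. Among the 13439 genes with at least 10 estimated fragments, 30.5% had an interval above 0 and 29.8% had one below, 60.3% in all. An interval without 0 was thus common in these libraries, and 4 of the 6 lncRNAs with 10 or more fragments had one. The 217 lncRNA genes at or above a mean FPKM of 1 had a median difference of -0.07, with quartiles of -0.50 and 0.31. All 11231 genes at that level had a median of 0.0086, with quartiles of -0.23 and 0.27. Of these lncRNA genes, 19.8% were higher and 24.4% lower by the threshold, 44.2% in all. Of all genes at that level, 12.1% were higher and 9.29% lower, 21.4% in all. The 4 members at that level, *Malat1*, *Neat1*, *Mir17hg* and *Pvt1*, held 1 higher and 1 lower.

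**Figure D3:**
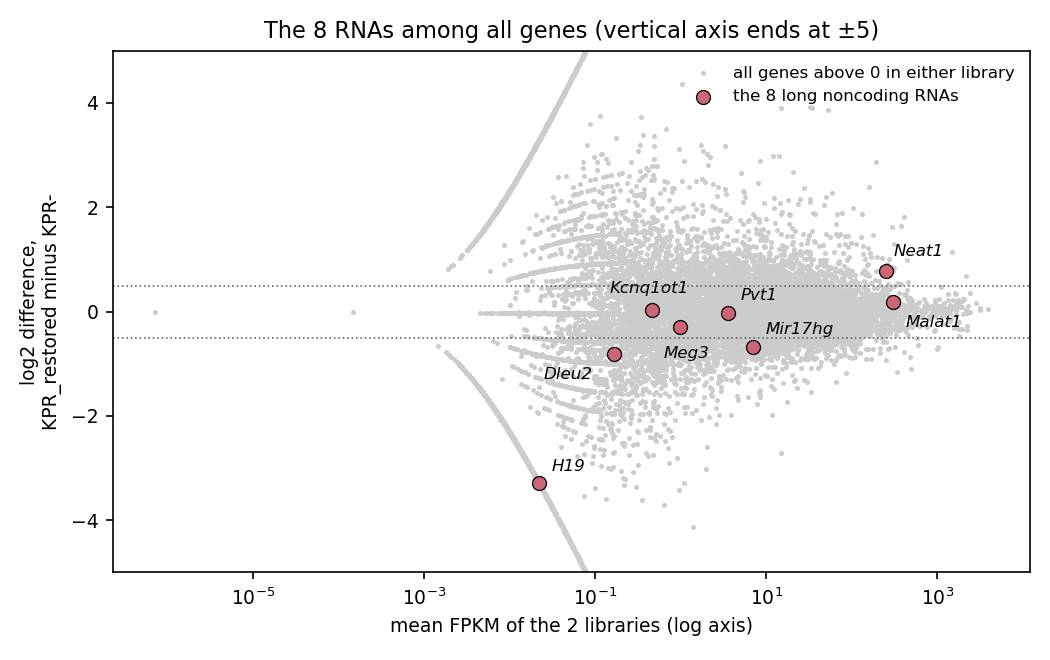
Mean FPKM of the libraries (log axis) against the log2 difference for every gene above 0 in either library (grey), with the 8 lncRNAs in red. The curved edges at low levels are genes listed at 0 in 1 library, where *H19* lies. The difference of *Neat1* lies above those of 94.9% of the genes whose mean FPKM was 1 or more.

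The genes that surround each lncRNA were described next, from lists of neighbours. At the *Malat1* and *Neat1* locus, 13 of 14 listed neighbours reached a mean FPKM of 1, with a median difference of 0.10. *Frmd8*, 4.22 kb from *Neat1*, was at 36.4 and 55.2 FPKM, a difference of 0.60. *Rela*, which encodes the p65 subunit of NF-kappaB, was at 46.2 and 66.3 FPKM, a difference of 0.52. *Sipa1*, a Rap GTPase activator, was lower, at 15.97 and 9.69 FPKM (-0.72). The other 10 were past the threshold neither way. Higher and lower genes lay side by side at this locus, and *Neat1* at 0.79 was above each of these neighbours. Of all genes at a mean FPKM of 1 or more, 12.1% were higher and 9.29% lower by the threshold. These shares are the background for this locus and for those below.

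At the *Pvt1* locus, *Myc*, 47.6 kb away, was at 73.6 FPKM in KPR- and 117 FPKM in KPR_restored. The difference of *Myc* was 0.67, with a counting interval of 0.61 to 0.73, which does not meet the main interval of *Pvt1* but meets the one from its shortest transcript (-0.94 to 0.85). The ratio of *Myc* to *Pvt1* was 20.6 in KPR- and 33.3 in KPR_restored. The farther neighbours *Asap1* (-0.49) and *Fam49b* (-0.16) were under the threshold. *Gsdmc* and *Adcy8* were listed at 0 in both libraries.

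At the *Meg3* locus, the paternally expressed *Dlk1*, a Notch-like growth factor gene, was at 1.5 FPKM in KPR- and 0.831 FPKM in KPR_restored, a difference of -0.85. The lncRNA *Rian*, 32.2 kb beyond *Meg3*, was at 0.841 and 0.593 FPKM (-0.502). *Dio3os* was lower as well, at 8.83 and 5.70 FPKM (-0.63), while *Dio3*, the thyroid hormone deiodinase gene, differed by 0.09. *Wars*, the tryptophanyl-tRNA synthetase gene that flanks the imprinted domain, was higher, at 32.6 and 53.5 FPKM (0.72). *Rtl1* was listed at 0 in both libraries. The lower values thus included genes known to be expressed from the paternal and from the maternal allele.

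At the *Kcnq1ot1* locus, *Cdkn1c*, an imprinted CDK inhibitor gene, was at 1.11 and 0.963 FPKM, with a counting interval of -0.92 to 0.45. The imprinted placental growth gene *Phlda2* was at 11.5 and 8.39 FPKM (-0.45), and *Slc22a18* was at 0.176 and 0.309 FPKM. Only *Cars*, the cysteinyl-tRNA synthetase gene, passed the threshold among the 8 of 13 neighbours at or above a mean FPKM of 1, at 55.8 and 139 FPKM (1.31). At the *H19* locus, *Igf2*, the fetal growth factor gene, was at 0.0716 and 0.0127 FPKM, and *Ins2* and *Nctc1* were listed at 0 in both. The neighbour *Mrpl23*, a mitochondrial ribosomal protein gene, was at 54.2 and 60.7 FPKM (0.16), so *H19* and *Igf2*, both near 0, lay beside a well expressed gene.

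At the *Dleu2* locus, 7 of 11 neighbours found in the files had a mean FPKM of at least 1. *Trim13* was the only one past the threshold, with a difference of 1.08 and a counting interval of 0.70 to 1.47. *Spryd7* was at 5.03 and 6.64 FPKM (0.40), and the others lay between -0.36 and -0.07. Not all of these others are close by. *Rcbtb1*, *Setdb2* and *Cab39l* end at or before chr14:59585764, whereas *Dleu2* spans chr14:61602839-61682373. Beside *Mir17hg*, the glypican gene *Gpc5*, 45.5 kb away, was listed at 0 in both libraries. The next glypican gene, *Gpc6*, lies 1.88 Mb away and was at 1.62 and 0.678 FPKM (-1.25).

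**Figure D4:**
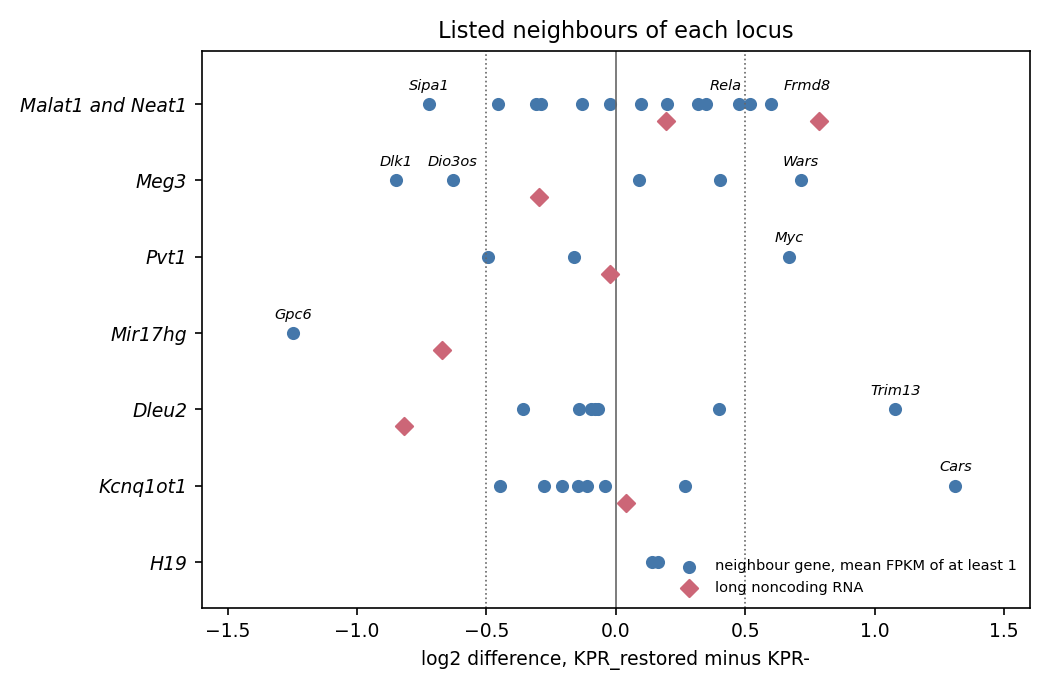
Log2 difference in KPR_restored minus KPR- of the listed neighbours at or above a mean FPKM of 1 (blue points) and of the lncRNA itself (red diamonds), by locus, with *H19* left out because its value is set by the pseudocount. Dotted lines mark 0.5 either way, and neighbours past them are named.

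Partners of the lncRNAs were taken from lists of their known protein factors and targets. The 19 paraspeckle protein genes all reached a mean FPKM of 1, and none of them passed the threshold, beside 21.4% of all genes at that level. Their median difference was -0.13, with a range of -0.498 to 0.22, beside 0.0086 for all genes at that level. *Rbmx*, an RNA-binding protein gene, was at 29.4 and 20.8 FPKM (-0.498), and *Rbm14* was at 41.1 and 32.0 FPKM (-0.36). *Taf15* was at 127 and 149 FPKM (0.22) and *Dazap1* at 96.9 and 106 FPKM (0.13).

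The 22 nuclear speckle genes had a median difference of -0.17, with 1 higher and 1 lower. All genes at a mean FPKM of 1 or more had a median of 0.0086, with 12.1% higher and 9.29% lower. These values are the background for both lists described here. *Clk1*, a kinase of splicing factors, was at 33.2 and 48.1 FPKM (0.53), and its relative *Clk4* was at 17.9 and 19.9 FPKM (0.15). The splicing factor genes *Srsf2* (226 and 155 FPKM, -0.54) and *Srsf1* (94.2 and 67.8 FPKM, -0.47) had the lowest differences. The 13 genes for RNase P, RNase Z and triple helix factors, which include the enzymes that cut the 3′ end of *Malat1*, had a median of 0.06. Of these, *Rpp38* was higher (14.4 and 25.8 FPKM, 0.84) and *Pop5* was lower (29.4 and 19.6 FPKM, -0.59), both encoding RNase P subunits. *Rpp21* (0.38) and *Pop1* (-0.38) were within the threshold.

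MicroRNA processing genes had a median difference of -0.33 over 12 of 15 members, with 10 of the 12 below 0. Of all genes at that level, 49.0% were below 0. *Adar*, an RNA-editing enzyme gene, was the only one past the threshold, at 10.2 and 15.8 FPKM (0.63). Of all genes at that level, 21.4% were past it. *Ago2*, the slicing Argonaute, was at 19.02 and 14.04 FPKM (-0.44), and *Xpo5*, the exporter of precursor microRNAs, was at 43.2 and 32.5 FPKM (-0.41). *Ddx5*, a Drosha cofactor, was at 238 and 257 FPKM (0.11). The 6 expressed activators of the miR-17-92 promoter had a median difference of -0.0004, with 3 above 0 and 3 below. By the threshold 2 were higher and 1 lower, beside 12.1% higher and 9.29% lower of all genes at that level. *Myc* (0.67) and *E2f2* (4.12 and 6.90 FPKM, 0.74) were the higher ones. *Ccnd1* was lower (331 and 203 FPKM, -0.71), and *E2f3* was at 12.9 and 10.8 FPKM (-0.25). *Myc* was thus higher and *Mir17hg* lower in the same library, and their ratio went from 8.62 to 21.9.

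The 17 listed targets of miR-17-92 and miR-15/16 had a median difference of -0.26, with 1 higher and 6 lower, beside 12.1% higher and 9.29% lower of all genes at that level. *Cdkn1a*, the p21 gene, was at 14.2 and 39.6 FPKM (1.48), and *Bcl2l11*, the Bim gene, was at 12.5 and 14.6 FPKM (0.22). *Thbs1*, an angiogenesis inhibitor gene, was at 12.2 and 3.55 FPKM (-1.77), and *Ctgf* was at 54.8 and 25.9 FPKM (-1.08). Most targets past the threshold were thus lower, and *Cdkn1a* was higher. Genes of imprinting control and silencing had a median of -0.31 over 14 of 15 members, with 12 of the 14 below 0, beside the same 49.0%. *Dnmt1*, the maintenance DNA methyltransferase gene, was at 67.0 and 42.6 FPKM (-0.65), and *Smchd1* was at 26.0 and 15.9 FPKM (-0.70). *Zfp57*, a guardian of imprints, was at 21.4 and 28.4 FPKM (0.41), and *Dnmt3a* was at 4.10 and 4.62 FPKM (0.17).

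Imprinted genes at other loci had a median difference of -0.04 over 15 of 24 members, with 3 higher and 3 lower. Of all genes at a mean FPKM of 1 or more, 12.1% were higher and 9.29% lower. *Grb10*, a growth factor receptor adaptor gene, was at 1.98 and 4.33 FPKM (1.13), and *Zrsr1* was at 1.91 and 3.32 FPKM (0.80). The antisense lncRNA *Airn* was at 3.63 and 2.02 FPKM (-0.85), and *Mest* was at 1.55 and 0.905 FPKM (-0.77). Other named lncRNAs had a median of 0.04 over 16 of 39 members, with 3 higher and 4 lower. This is near the shares of all lncRNA genes at that level, 19.8% higher and 24.4% lower. The lists overlap, so their counts are not separate observations. For example, *Airn* is also in the imprinted list, *Dio3os* in the *Meg3* locus list, and *Ccnd1* among both activators and targets. *Mir22hg*, the host of miR-22, was at 5.37 and 11.1 FPKM (1.04), the opposite direction to *Mir17hg*. *Rpph1*, the RNA of RNase P, was at 2.86 and 5.10 FPKM from only 7 and 12 estimated fragments. *Hotairm1* was at 2.68 and 1.39 FPKM from 12 and 6 fragments.

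**Figure D5:**
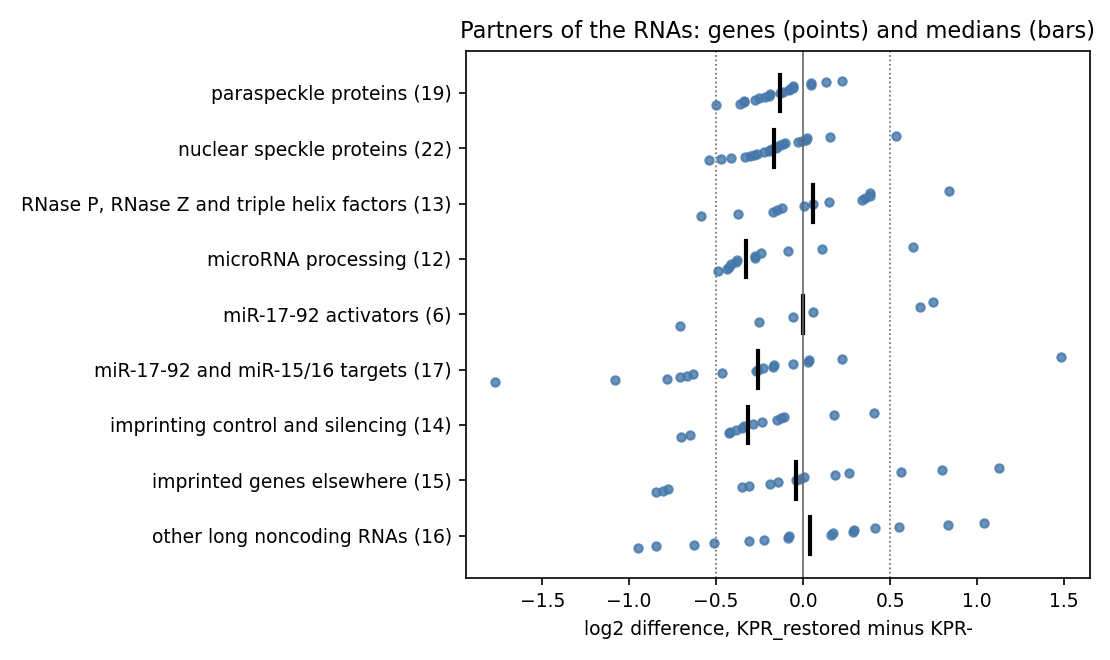
Log2 difference in KPR_restored minus KPR- of the genes at or above a mean FPKM of 1 in each list of partners (points, with their number in brackets) and the median of the list (bar). Dotted lines mark 0.5 either way. All paraspeckle protein genes lie between the lines, and the targets spread from -1.77 to 1.48.

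Promoter windows were read for letters that RUNX proteins and other factors bind. RefSeq windows of 250 bases before to 50 bases after the start were present for *Malat1*, *Meg3*, *Mir17hg*, *Dleu2* and *Kcnq1ot1*. The RUNX letters were ACCACA or ACCGCA on either strand, and 22.4% of all 32851 windows hold them. They occurred in a window of *Meg3*, at -225 from the start, and in that of *Mir17hg*, at -8. Both are printed here because they hold the RUNX letters, in capitals with the other matched letters, from chr12:109540746-109541045 and chr14:115044140-115044439 (GRCm38, plus strand).
Meg3: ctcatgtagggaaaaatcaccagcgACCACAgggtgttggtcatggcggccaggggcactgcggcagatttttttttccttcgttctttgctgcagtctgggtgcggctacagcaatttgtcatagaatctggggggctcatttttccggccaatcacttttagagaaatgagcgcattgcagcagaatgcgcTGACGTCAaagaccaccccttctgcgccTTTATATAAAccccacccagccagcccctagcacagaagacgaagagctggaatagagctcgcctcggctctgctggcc
Mir17hg: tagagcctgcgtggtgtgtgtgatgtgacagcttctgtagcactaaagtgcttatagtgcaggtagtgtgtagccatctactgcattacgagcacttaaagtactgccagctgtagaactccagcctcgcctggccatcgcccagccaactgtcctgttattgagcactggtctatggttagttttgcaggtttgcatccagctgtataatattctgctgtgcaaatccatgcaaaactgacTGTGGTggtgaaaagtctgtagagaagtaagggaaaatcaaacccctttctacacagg
The *Mir17hg* window covers the miR-20a and miR-19b-1 hairpins, and its RUNX letters lie inside the miR-19b-1 hairpin, so this window is not the start of the GENCODE transcript. The *Meg3* window also holds a cyclic AMP response element, TGACGTCA, at -57 from the start, found in 1.79% of windows. Its TATA letters (TATAAA, either strand, overlapping) lie at -29 and -25, and 13.6% of windows hold such letters. The *Dleu2* window holds the E-box CACGTG, which 7.15% of windows hold, at -178 from the start, and TATAAA 15 bases after it. None of the letters searched occurred in the windows of *Malat1* and *Kcnq1ot1*, and a second window of *Meg3* held none either. These matches describe letters and not binding.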

How the data were processed

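Poly(A) RNA of 1 KPR- and 1 KPR_restored library was sequenced by the authors from directional libraries, and reads were trimmed, mapped using TopHat (mm10, per the submitters' processing notes) and given as FPKM values by Cufflinks. The paper also describes a geometric normalization of read counts in EdgeR. Whether that step entered the deposited values was not tested, so the fitted depths may include such a scaling. Versions, annotation and strand setting are not given in the sources used here. The deposited FPKM values, 1 per gene and library, were used as they stand.

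Differences were log2(FPKM + 0.005) in KPR_restored minus KPR-, with a threshold of 0.5. With so small a pseudocount, genes near 0 can pass the threshold on few fragments. With a pseudocount of 1, the genes past it fell from 3193 to 1141 higher and from 3002 to 836 lower. Lists were described over members that reached a mean FPKM of 1. Depth was fitted to the steps of low values (78.2% of 570 genes in KPR- and 80.5% of 585 in KPR_restored lay within 0.1 of a whole fragment). Fragments were estimated with the longest GENCODE M21 transcript matched to RefSeq, or the longest of all, so they depend on that length; *Pvt1* and *Dleu2* have longer transcripts than those used (up to 3319 and 4098 bases). Of the symbols, 22148 matched GENCODE directly and 666 through a synonym. Scripts were tested on simulated data.

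The 8 members and all lists were chosen with earlier results of these data known. Named genes were the 8, *Runx3*, neighbours from the locus lists and, in each other list, among genes that reached a mean FPKM of 1, the 2 highest and the 2 lowest differences of log2(FPKM + 1). Neighbours and cell type markers below that mean were named after their values were seen. Scripts ran in Python 3.11.15 with pandas 2.3.3, numpy 2.4.6, matplotlib 3.10.9 and scipy 1.17.1. Alternatives were other pseudocounts, scalings, thresholds, filters and transcript lengths.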

Additional observations from a re-analysis of the deposited data

How the results depend on the processing

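No paired analysis was possible because each condition is 1 library. The log2 differences of the 8 lncRNAs kept their sign under the alternatives run, which were other pseudocounts, estimated fragments (not for *H19*, which has none in KPR_restored), centring on the median gene, and scaling to equal FPKM totals or upper quartiles. That of *Neat1* ran from 0.77 to 0.79, that of *Malat1* from 0.17 to 0.19, that of *Mir17hg* from -0.69 to -0.58 and that of *Meg3* from -0.32 to -0.15. That of *Dleu2* ran from -1.05 with estimated fragments to -0.12 with a pseudocount of 1, and that of *H19* from -4.16 with equal FPKM totals to -0.06 with a pseudocount of 1. Upper-quartile scaling gave 0.173 for *Malat1* and 0.767 for *Neat1*, just below their counting intervals from the longest transcript. Both values lie inside the intervals from the shortest transcript, 0.10 to 0.29 for *Malat1* and 0.71 to 0.87 for *Neat1*. With a threshold of 1, no lncRNA was higher (0) and 1 was lower, *H19*. A pseudocount of 1 and a mean FPKM of at least 1 each left 1 lower, *Mir17hg*, and a mean of at least 0.1 left 2. Over all genes, 3193 were higher and 3002 lower. These became 1141 and 836 with a pseudocount of 1, 1625 and 1527 with a threshold of 1, 1358 and 1043 with a mean FPKM of at least 1, and 2111 and 1776 with at least 0.1. With the shortest transcript, the bound of the *Meg3* interval nearest to 0 moved from -0.07 to 1.85, because far fewer fragments were estimated. Of the list medians, only that of other lncRNAs changed sign, to -0.08 with a mean FPKM of at least 0.1. Taking the RefSeq span as the length of *Mir17hg* and *Kcnq1ot1* was chosen after seeing the data. Depth limits *Dleu2* and *H19*, which have under 10 estimated fragments over both libraries with the transcript lengths used.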

Other observations

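Other lncRNA genes, chosen after their values were seen, differed more than most of the 8. *2410006H16Rik*, a short lncRNA of high level, was at 150.5 FPKM in KPR- and 307 FPKM in KPR_restored, a log2 difference of 1.03 (counting interval 0.91 to 1.15). *1810008I18Rik* was at 0.755 and 2.88 FPKM, from 36 and 143 estimated fragments. *Xist*, the RNA that coats the inactive X chromosome, was lower in KPR_restored, at 107 and 60.5 FPKM, a log2 difference of -0.83 (counting interval -0.85 to -0.80). *Gm20605* was lower as well, at 6.90 and 3.12 FPKM, with an interval of -1.35 to -0.94. The transcript used had 17946 bases for *Xist*, which was lower in KPR_restored, and 20771 bases for *Neat1*, which was higher. Whether transcript length had a part in these differences was not tested. None of these differences has a replicate check.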
